A study of Homo sapiens with 6 samples.

Results

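The integrin and laminin genes of tamoxifen-resistant T47D-TR cells and their parental T47D cells are described here. The 33 genes were taken by symbol from the 20503 genes of the count table: 13 integrin alpha chains, 7 integrin beta chains, 11 laminin chains, the nidogen gene NID2 and the dystroglycan gene DAG1, without antisense genes. NID1 and further family genes were not analysed here. T47D is a human breast cancer cell line that the labels call ER-positive, and the T47D-TR subline was derived from it and grows in medium with 1 µM 4-hydroxytamoxifen, an active form of the drug tamoxifen. Poly(A) RNA was sequenced in 3 libraries of T47D-TR with the drug and 3 libraries of T47D, for which no drug is named, so subline and drug changed together. The labels say neither whether the subline is a single clone nor whether each library had its own culture. The p-values therefore reflect the spread between libraries alone, which may be technical. Beyond counting error, the coefficient of variation between libraries was 0.08 in T47D-TR and 0.0271 in T47D. The test fitted a shared spread per gene for both groups.

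Integrins are cell surface receptors made of 1 alpha and 1 beta chain. They hold cells to the extracellular matrix and signal through kinases at the sites of attachment. Laminins are heterotrimers of an alpha, a beta and a gamma chain. Together with collagen IV, nidogen and perlecan they build the basement membrane under epithelia such as the mammary ducts. The pairs alpha6-beta4, alpha6-beta1 and alpha3-beta1 bind laminins, alpha2-beta1 and alpha1-beta1 bind collagens, and alpha5-beta1 and the alphaV pairs bind fibronectin, vitronectin and related ligands. Dystroglycan is a further laminin receptor, which is not an integrin.

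The libraries held 17199315 to 19867230 counts, at which 3 counts equal 0.153 to 0.178 CPM (counts scaled to a common library size). Pearson's r of log2 CPM across genes, which are not independent replicates, was 0.990 to 0.994 within a group and 0.942 to 0.948 between groups. T47D-TR replicate 3 had the lowest r within its group, and among 27 tested members it was the highest of the T47D-TR libraries in 15 and the lowest in 6. ESR1, the gene of oestrogen receptor alpha, had 2, 4 and 3 counts in the T47D-TR libraries and 3, 0 and 2 counts in the T47D libraries, so that the defining marker of the ER-positive label was barely detected in either. The simple epithelial keratin gene KRT8 was abundant, at 1580.2 ± 120.3 CPM in T47D-TR and 1338 ± 26.0 CPM in T47D, whereas the E-cadherin gene CDH1 was low, at 5.50 ± 2.40 CPM in T47D-TR and 2.12 ± 0.742 CPM in T47D (SD, n = 3 each). In bulk RNA, fewer cells that express a gene and less of its RNA per cell cannot be told apart.

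Most integrin and laminin genes were higher in T47D-TR. Of 27 members that passed the filter on low counts, 25 were called, where 63% of all tested genes were. Of these members 21 rose and 4 fell at a Benjamini-Hochberg adjusted p under 0.05 (edgeR quasi-likelihood test over 15961 genes), while ITGA7 and ITGAE were not called. The share of members that rose was 77.8%, where 32.5% of all tested genes rose, and 14.8% fell, where 30.5% of all tested genes fell. At least 2-fold rises took 14 members (51.9%), against 10.1% of all tested genes, and an at least 2-fold fall took 1 member, against 3.87%. The median log2 fold change, T47D-TR over T47D, was 1.26 over the members and 0.00 over all tested genes. LAMA4 passed the filter through T47D-TR alone and LAMA1 through T47D alone, and among the 25 members that passed it in both groups 20 rose and 3 fell. At 2-fold or more, 13 of these 25 members rose and 0 fell. The libraries of the groups did not overlap for 26 of the 27 members, nor for 68.3% of all tested genes. The other 6 members, ITGA2B, ITGA10, ITGA11, ITGAD, ITGAX and ITGB3, had 0 to 10 counts in any library and were not tested.

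**Figure D1:**
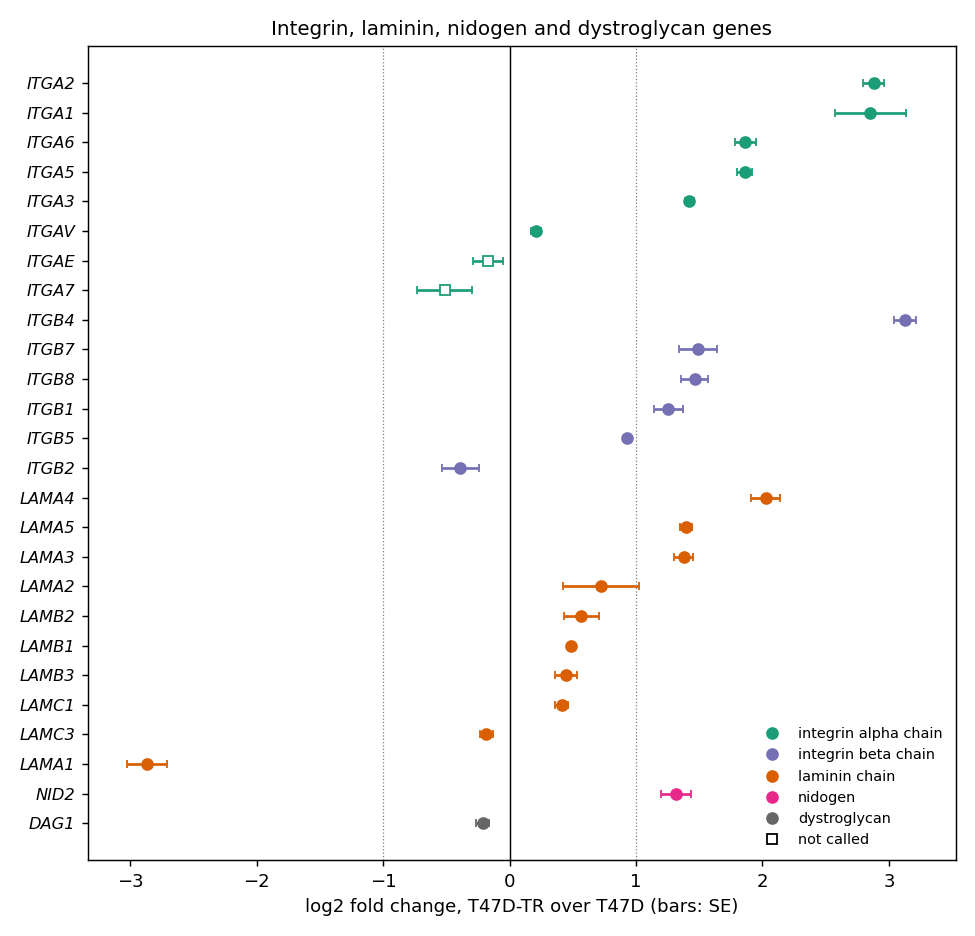
Log2 fold change (T47D-TR over T47D) of 26 tested members, by role, with bars for the SE and open squares for members that were not called. The SE comes from log2 CPM with a prior count of 2 and may understate the counting error of members with few counts. ITGB4 lies highest at 3.13 and LAMA1 lowest at -2.87; dotted lines mark a 2-fold change.

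Of the laminin-binding integrin chains, beta4, alpha6, alpha3 and beta1 all rose, beta4 the most. ITGB4 (chromosome 17, 75721459 to 75757818, GRCh38), whose product pairs with alpha6 alone and anchors hemidesmosomes, had 264, 302 and 253 CPM in T47D-TR, against 33.0, 30.7 and 30.1 CPM in T47D. Every T47D-TR library lay above every T47D library, and the rise was 8.74-fold (log2 fold change 3.13 ± 0.09, edgeR adjusted p = 9.3e-12). Its partner gene ITGA6 (chromosome 2, 172427336 to 172506459) had 421, 492 and 503 CPM in T47D-TR, against 129, 128 and 132 CPM in T47D. That was a 3.64-fold rise (edgeR adjusted p = 1.6e-10), with T47D-TR replicate 1 the lowest of its group and still far above T47D. ITGA3 (chromosome 17, 50056110 to 50090481), which encodes the alpha3 chain, stood at 535, 573 and 559 CPM in T47D-TR, against 214, 204 and 205 CPM in T47D. Its T47D-TR values lay close together and 2.68-fold above the parent (log2 fold change 1.42 ± 0.04, edgeR adjusted p = 7e-11).

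ITGB1 (chromosome 10, 32900318 to 32958230) encodes beta1, the shared partner of most alpha chains, and had the highest CPM of all members in T47D-TR, where DAG1 was highest in T47D. Its values were 1046, 1079.5 and 1349 CPM in T47D-TR, against 478, 475 and 501 CPM in T47D. Replicate 3 stood above the other T47D-TR libraries, and the groups did not overlap (log2 fold change 1.26 ± 0.12, edgeR adjusted p = 3.6e-08); without that replicate the log2 fold change was 1.14. A processed copy, ITGB1P1, took 119, 142 and 152 counts in T47D-TR and 69, 84 and 79 counts in T47D, and how the counting divided reads between the gene and its copy is not known. ITGA7, the gene of a laminin-binding alpha chain best known from muscle, was low at 1.15 ± 0.311 CPM in T47D-TR and 1.62 ± 0.142 CPM in T47D and was not called (log2 -0.51, edgeR adjusted p = 0.103).

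**Figure D2:**
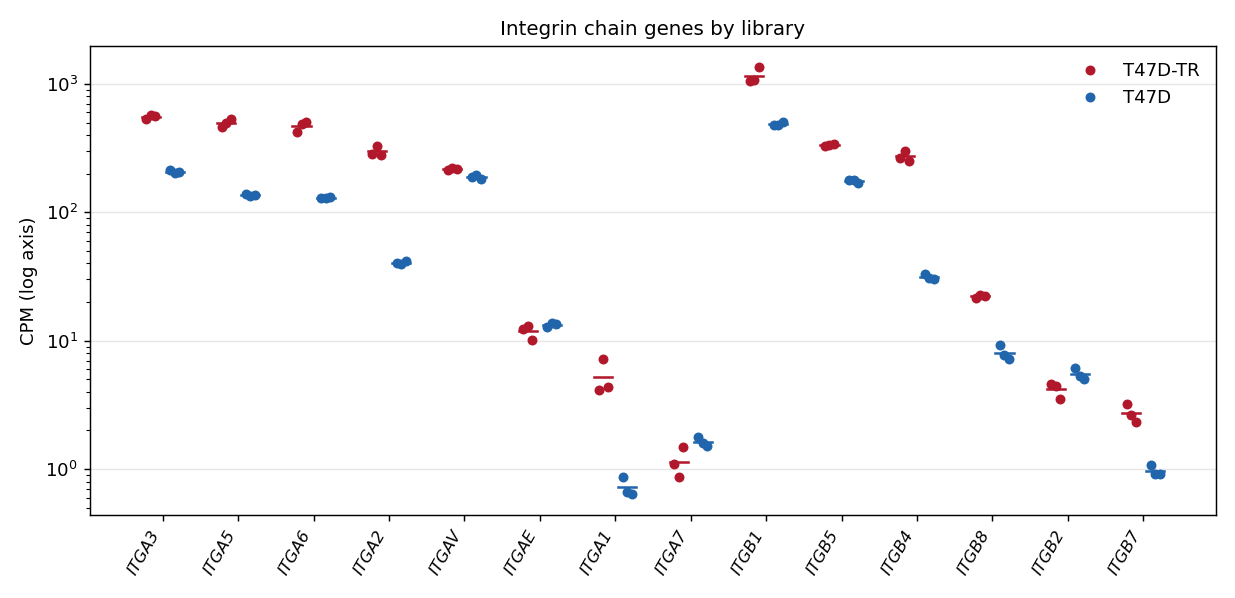
CPM (log axis) of the 14 tested integrin genes in each library, with a line at the mean of each group. ITGB4 and ITGA2 show the widest separation among the abundant chains, at means of 273 and 299 CPM in T47D-TR, and 31.2 and 40.6 CPM in T47D.

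Both tested collagen receptor alpha chains rose by about the same factor, at very different levels. ITGA2 (chromosome 5, 52989352 to 53094779), the alpha2 gene, had 284, 331 and 281 CPM in T47D-TR, against 40.2, 39.6 and 42.0 CPM in T47D. The increase was 7.36-fold (log2 fold change 2.88 ± 0.08, edgeR adjusted p = 1.1e-11), and T47D-TR replicate 2 was the highest. ITGA1 (chromosome 5, 52787916 to 52959209), the alpha1 gene, had 4.15, 7.24 and 4.32 CPM in T47D-TR, against 0.861, 0.665 and 0.643 CPM in T47D. Its 7.22-fold change (log2 fold change 2.85 ± 0.28, edgeR adjusted p = 2.5e-06) rests on 80, 142 and 73 counts in T47D-TR and 16, 13 and 12 counts in T47D. The genes are neighbours, 30142 bases apart on chromosome 5. PELO, whose exons overlap those of ITGA1 on the same strand, was not called (log2 0.02, edgeR adjusted p = 0.85). The remaining collagen-binding alpha genes, ITGA10 and ITGA11, were among the untested members, with 9, 6 and 9 counts of ITGA10 in T47D-TR and 10, 10 and 8 counts in T47D.

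Among the receptors of fibronectin and other RGD-containing ligands, the alpha5 chain moved most and the alphaV chain least. ITGA5 (chromosome 12, 54395261 to 54419266), the alpha chain of the classical fibronectin receptor, had 466, 492 and 532 CPM in T47D-TR, against 139.6, 135 and 136 CPM in T47D. It rose 3.63-fold (log2 fold change 1.86 ± 0.06, edgeR adjusted p = 3.8e-11) with no overlap of the groups. ITGAV (chromosome 2, 186590056 to 186680901), which pairs with several beta chains, had 212, 223 and 216 CPM in T47D-TR, against 187, 194 and 181 CPM in T47D. The rise was small, 1.16-fold (log2 fold change 0.21 ± 0.04, edgeR adjusted p = 0.0012), though the groups did not overlap.

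Of the beta chains that pair with alphaV, ITGB5 (chromosome 3, 124761948 to 124901418), the gene of a vitronectin receptor chain, had 330.2, 336 and 338 CPM in T47D-TR, against 178, 178 and 171 CPM in T47D. That is a 1.91-fold rise (edgeR adjusted p = 1.6e-09) with little spread in either group. ITGB8 (chromosome 7, 20329766 to 20415754), whose product binds latent TGF-beta, had 21.7, 22.7 and 22.2 CPM in T47D-TR, against 9.21, 7.77 and 7.18 CPM in T47D. It rose 2.76-fold (log2 fold change 1.46 ± 0.11, edgeR adjusted p = 8e-08). ITGB3, the beta chain of a further vitronectin receptor, had 3, 2 and 3 counts in T47D-TR and 3, 2 and 3 counts in T47D and was not tested.

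Integrin genes known mainly from leukocytes were low in both cultures. ITGB2, the common beta chain of leukocyte integrins, fell slightly, with 4.61, 4.44 and 3.49 CPM in T47D-TR, against 6.14, 5.32 and 5.04 CPM in T47D (log2 -0.39, edgeR adjusted p = 0.042). Its call ended in 5 of 12 alternative analyses, among them without T47D-TR replicate 3 (log2 -0.28, edgeR adjusted p = 0.113) and with DESeq2 (adjusted p = 0.1003), and its adjusted p ranged over them up to 0.154. ITGB7, a beta chain of lymphocyte homing receptors, rose, with 3.21, 2.65 and 2.31 CPM in T47D-TR, against 1.08, 0.921 and 0.911 CPM in T47D (log2 1.49, edgeR adjusted p = 0.0001). About 1569 of its 3199 exonic bases overlap ZNF740 on the other strand, which rose at log2 0.39, and with an unknown strand setting the counting may have mixed their reads. ITGAE, the alphaE chain that pairs with beta7 and binds E-cadherin, had 12.4, 13.0 and 10.1 CPM in T47D-TR, against 12.7, 13.8 and 13.5 CPM in T47D, overlapping values that were not called (edgeR adjusted p = 0.18). Of 17 leukocyte markers 10 were in the table, 8 of them under 1 CPM, and their sum was 76.6 to 81.4 CPM in T47D-TR and 12.4 to 12.7 CPM in T47D. Most of the T47D-TR sum was LAPTM5, a lysosomal membrane protein gene, at 72.5 ± 2.99 CPM in T47D-TR and 5.09 ± 0.344 CPM in T47D, while PTPRC, which encodes the pan-leukocyte antigen CD45, had 1, 0 and 1 counts in T47D-TR and 2, 2 and 2 counts in T47D.

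Since the rises were unequal, the make-up of the receptor transcripts differed between the groups. Levels of different genes are compared here as CPM per kilobase of exons (GENCODE v29), and the differences in shares and ratios are descriptions, since 3 against 3 libraries cannot go below p = 0.10 in an exact permutation test. Summed per kilobase, the alpha chain genes reached 376 ± 19.3 in T47D-TR and 129 ± 1.44 in T47D, and the beta chain genes 335 ± 29.2 in T47D-TR and 135 ± 1.59 in T47D. ITGB1 made up 64.4% ± 3.57 of the beta chain sum in T47D-TR and 67.0% ± 1.27 in T47D, a difference that turned direction with coding length (69.9% in T47D-TR and 69.8% in T47D). ITGB4 took 13.1% ± 1.95 of it in T47D-TR and 3.68% ± 0.195 in T47D. On the alpha side ITGA2 took 10.1% ± 0.830 in T47D-TR and 3.99% ± 0.150 in T47D, and ITGA6 21.2% ± 0.955 in T47D-TR and 16.97% ± 0.379 in T47D. The share of ITGAV was 7.64% ± 0.275 in T47D-TR, below the 19.2% ± 0.671 in T47D.

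Within a library, the ratio of ITGB4 to ITGA6 per kilobase was 0.589, 0.576 and 0.472 in T47D-TR, against 0.240, 0.225 and 0.214 in T47D. Beta4 transcripts thus stayed below those of their only partner chain in every library, with a ratio 2.41 times higher in T47D-TR. ITGA2 relative to ITGB1 had ratios of 0.185, 0.209 and 0.142 in T47D-TR, against 0.0573, 0.0568 and 0.0571 in T47D, and replicate 3 was the lowest of T47D-TR. The ratio of ITGA5 to ITGB1 was 0.537, 0.550 and 0.475 in T47D-TR, against 0.352, 0.343 and 0.328 in T47D. ITGA3 kept its proportion to ITGB1 more closely, with overlapping ratios of 0.561, 0.582 and 0.454 in T47D-TR, against 0.491, 0.470 and 0.448 in T47D. The ratio of ITGAV to ITGB1 was lower in T47D-TR, at 0.144, 0.146 and 0.113, against 0.278, 0.290 and 0.256 in T47D. ITGA6 relative to ITGB1 had 0.365, 0.413 and 0.338 in T47D-TR, against 0.245, 0.245 and 0.238 in T47D. ITGB5 exceeded its partner ITGAV per kilobase in every library, with ratios of 2.49, 2.41 and 2.50 in T47D-TR, against 1.52, 1.47 and 1.51 in T47D.

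**Figure D3:**
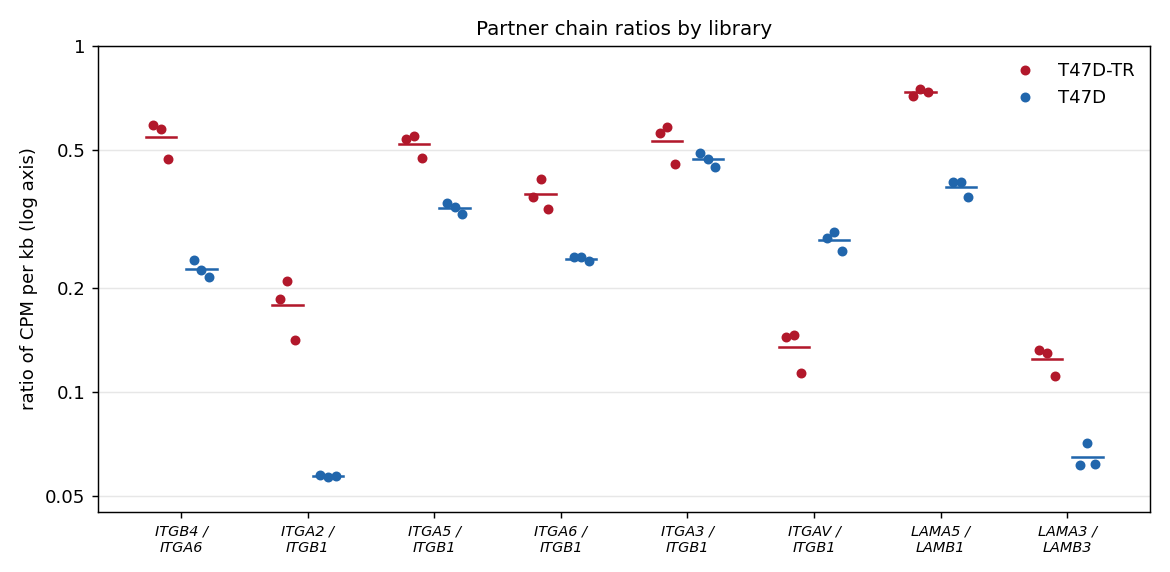
Ratio of CPM per kilobase of exons (log axis) for 8 pairs of partner chains in each library, with a line at each group mean. The groups do not overlap for ITGB4 to ITGA6, ITGA2 to ITGB1 or LAMA3 to LAMB3, and they do for ITGA3 to ITGB1.

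All 11 laminin chain genes were tested, of which 9 rose and 2 fell. LAMA5 (chromosome 20, 62309065 to 62367312), the alpha chain of laminin-511 and laminin-521, the broadly expressed epithelial forms, had 368, 394 and 385 CPM in T47D-TR, against 151, 146 and 139 CPM in T47D. It rose 2.63-fold (log2 fold change 1.39 ± 0.05, edgeR adjusted p = 1.8e-10), with every T47D-TR library above T47D. Its antisense neighbour LAMA5-AS1 also rose (log2 1.32, edgeR adjusted p = 2.6e-06) at a far lower 14.1 ± 0.871 CPM in T47D-TR and 5.66 ± 1.10 CPM in T47D, and 118 of the 11696 exonic bases of LAMA5 overlap it, within which reads could be mixed.

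The other chains of these trimers changed less. LAMB1 (chromosome 7, 107923799 to 108003161), the beta1 chain, had 289, 296 and 296 CPM in T47D-TR, against 211.5, 204 and 215 CPM in T47D (log2 fold change 0.48 ± 0.02, edgeR adjusted p = 5.2e-07). LAMB2 (chromosome 3, 49121114 to 49133050), the beta2 chain, had 127, 133 and 171 CPM in T47D-TR, against 101, 95.8 and 92.6 CPM in T47D (log2 fold change 0.57 ± 0.14, edgeR adjusted p = 0.00016), and replicate 3 exceeded the other T47D-TR libraries. LAMC1 (chromosome 1, 183023420 to 183145592), the gamma1 chain of most laminins, had 351, 359 and 389.8 CPM in T47D-TR, against 281, 267 and 278 CPM in T47D (log2 fold change 0.41 ± 0.05, edgeR adjusted p = 7.8e-06). For all 3 genes the groups did not overlap, and the rise was 1.33-fold to 1.48-fold. Per kilobase, LAMA5 averaged 32.7 ± 1.12 in T47D-TR and 12.4 ± 0.545 in T47D, against 46.0 ± 2.55 in T47D-TR and 34.5 ± 0.948 in T47D for LAMC1. LAMA5 relative to LAMB1 stood at 0.719, 0.753 and 0.735 in T47D-TR, against 0.405, 0.405 and 0.366 in T47D. The alpha chain was thus the least abundant transcript of laminin-511 in both groups, and the gap to its partners was narrower in T47D-TR.

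LAMA3 and LAMB3, which encode chains of laminin-332, the anchoring laminin of epithelia and a ligand of alpha6-beta4, rose unequally. LAMA3 (chromosome 18, 23689453 to 23955066) had 32.6, 33.3 and 33.3 CPM in T47D-TR, against 12.1, 14.1 and 11.9 CPM in T47D. It rose 2.60-fold (log2 fold change 1.38 ± 0.08, edgeR adjusted p = 1.9e-08), with T47D-TR libraries that nearly coincided. LAMB3 (chromosome 1, 209614870 to 209652425), the beta3 chain, had 85.2, 88.6 and 103 CPM in T47D-TR, against 68.2, 68.3 and 66.8 CPM in T47D, a 1.36-fold rise (log2 fold change 0.45 ± 0.09, edgeR adjusted p = 9e-05). Per kilobase LAMA3 was the less abundant of the pair, at 2.43 ± 0.0301 in T47D-TR and 0.935 ± 0.0865 in T47D, while LAMB3 stood at 19.7 ± 2.06 in T47D-TR and 14.4 ± 0.183 in T47D. LAMA3 relative to LAMB3 was 0.132, 0.130 and 0.111 in T47D-TR, against 0.0613, 0.0710 and 0.0617 in T47D, without overlap. The length used for LAMA3 joins the exons of all its protein-coding transcripts (13598 bases), and counts per gene do not separate transcripts. Where shorter transcripts prevail, the level of LAMA3 and its ratio to LAMB3 are understated.

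**Figure D4:**
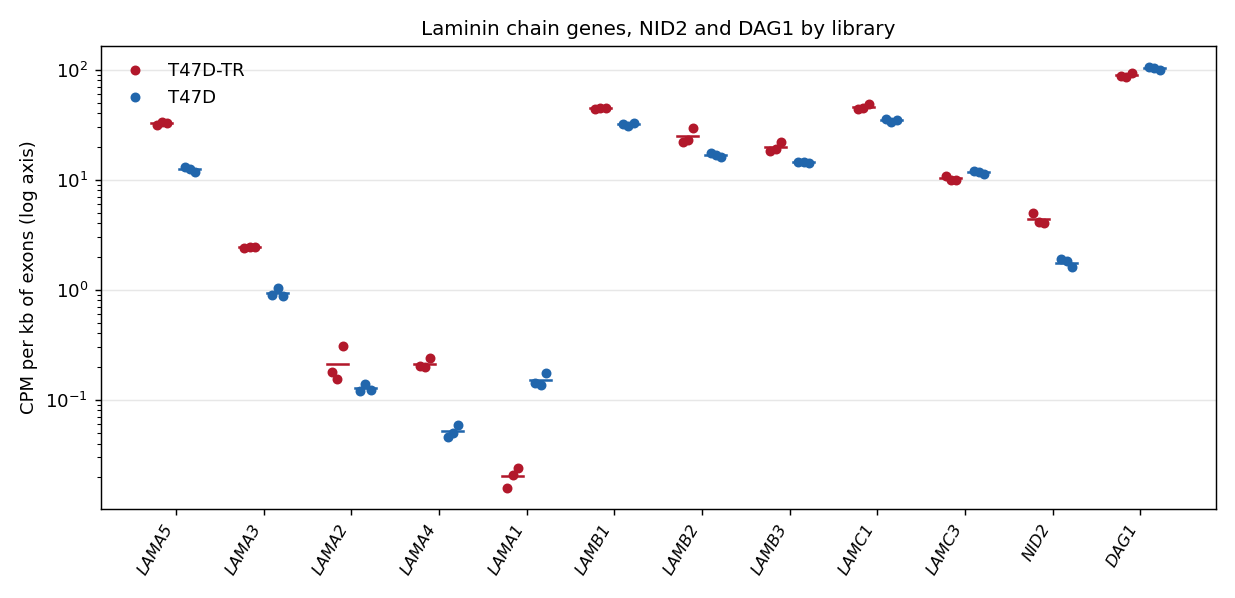
CPM per kilobase of exons (log axis) of 10 laminin chain genes, NID2 and DAG1 in each library, with a line at each group mean. LAMA5 lies near 32.7 in T47D-TR and 12.4 in T47D, whereas LAMA1, LAMC3 and DAG1 are lower in T47D-TR.

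The minor laminin chains went both ways. LAMC3 (chromosome 9, 131009174 to 131094473), the gamma3 chain, fell slightly, with 82.3, 74.4 and 75.8 CPM in T47D-TR, against 89.6, 88.9 and 85.4 CPM in T47D (log2 fold change -0.18 ± 0.05, edgeR adjusted p = 0.0095). LAMA1 (chromosome 18, 6941742 to 7117797), the alpha chain of the embryonic laminin-111, had 3, 4 and 4 counts in T47D-TR, against 26, 26 and 32 counts in T47D. This was the deepest fall of the members (log2 fold change -2.87 ± 0.15, edgeR adjusted p = 1.5e-05), to about the level of 3 counts. LAMA4 (chromosome 6, 112107931 to 112254985), an alpha chain of endothelial and mesenchymal laminins, had 32, 32 and 33 counts in T47D-TR, against 7, 8 and 9 counts in T47D (log2 fold change 2.03 ± 0.11, edgeR adjusted p = 4.6e-05). The SEs of LAMA1 and LAMA4 come from log2 CPM damped by a prior count and may understate the counting error at such low counts. LAMA2, the alpha chain of muscle and nerve laminins, was low at 2.12 ± 0.836 CPM in T47D-TR and 1.27 ± 0.102 CPM in T47D and just passed the test (log2 0.72, edgeR adjusted p = 0.042). Its call ended in 7 of 12 alternatives, for example at log2 0.38 without T47D-TR replicate 3 (edgeR adjusted p = 0.239, the highest of them).

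NID2 (chromosome 14, 52004809 to 52069059) encodes a nidogen, which links laminin to collagen IV, and had 25.04, 21.0 and 20.4 CPM in T47D-TR, against 9.53, 9.15 and 8.04 CPM in T47D. It rose 2.49-fold (log2 fold change 1.31 ± 0.12, edgeR adjusted p = 3.9e-07) with no overlap of the groups. Of its 5045 exonic bases 1089 overlap a gene on the other strand that the table lists as C14orf166, which fell slightly (log2 -0.23). DAG1 (chromosome 3, 49468948 to 49535615), the dystroglycan gene, had 575, 564 and 617 CPM in T47D-TR, against 698, 687 and 649.5 CPM in T47D. It was the only laminin receptor gene among the tested members that was called lower, by a small and even amount (log2 fold change -0.21 ± 0.05, edgeR adjusted p = 0.0011). The groups did not overlap.

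Start site sequences are shown for the 3 members whose windows hold the AP-1 motif TGANTCA (the same letters on both strands), namely LAMA3, LAMB3 and ITGA5. All 3 rose, as did 21 of the 27 tested members. The windows of ITGA2, ITGA6 and LAMA5, which also rose, hold none, and no window is listed for ITGB4 or ITGA3. The windows run from 250 bases before to 50 bases after a start in RefSeq (GRCh38.p14), which lists 31 such windows for 23 of the 33 members, and capitals mark the motif. In the gene's own direction they read:
LAMA3, chr18:23872770-23873069, plus strand: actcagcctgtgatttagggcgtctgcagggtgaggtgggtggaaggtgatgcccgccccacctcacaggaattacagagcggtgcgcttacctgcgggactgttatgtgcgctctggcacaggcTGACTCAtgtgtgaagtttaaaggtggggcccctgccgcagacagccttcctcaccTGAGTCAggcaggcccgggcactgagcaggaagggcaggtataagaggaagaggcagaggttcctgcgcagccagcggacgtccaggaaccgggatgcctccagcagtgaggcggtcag
LAMB3, chr1:209651325-209651624, minus strand: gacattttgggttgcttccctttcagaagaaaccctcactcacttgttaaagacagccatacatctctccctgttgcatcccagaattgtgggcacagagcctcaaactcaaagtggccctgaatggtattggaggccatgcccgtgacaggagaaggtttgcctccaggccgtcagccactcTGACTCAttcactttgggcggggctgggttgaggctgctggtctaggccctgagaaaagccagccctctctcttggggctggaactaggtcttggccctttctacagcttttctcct
ITGA5, chr12:54419217-54419516, minus strand: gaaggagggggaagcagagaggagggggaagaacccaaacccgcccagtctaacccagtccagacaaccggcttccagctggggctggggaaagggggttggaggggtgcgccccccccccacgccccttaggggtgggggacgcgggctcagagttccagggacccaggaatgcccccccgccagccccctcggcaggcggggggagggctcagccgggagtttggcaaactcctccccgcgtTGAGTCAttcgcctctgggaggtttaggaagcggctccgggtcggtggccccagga
The LAMA3 window lies at an internal start of the gene and holds the motif at 2 places, 125 and 69 bases before the start. In LAMB3 it begins 67 bases before an internal start, and the windows of 2 other LAMB3 starts hold none. In ITGA5 it begins 6 bases before the start. The motif stands in 3 of the 31 member windows (9.68%) and in 7.71% of all 35116 windows in the same table. The E-box CAGGTG, read on both strands, stands in 6 of the 31 member windows (19.4%) and in 20.6% of all windows. The GC box GGGCGG, read on both strands, stands in 20 of the 31 member windows (64.5%) and in 44.95% of all windows. A match describes these letters alone, and no binding was measured.

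Some members lie near each other on a chromosome. ITGA1 and ITGA2, the closest tested pair, had log2 fold changes of 2.85 and 2.88.

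Of all tested genes 32.5% rose and 30.5% fell, and the lists of partner genes are set beside those shares. Genes that act with the receptors inside the cell lay near them. Of 29 tested integrin activators and actin linkers, 10 rose (34.5%), 12 fell (41.4%) and 7 were not called (median log2 fold change -0.08). Among the 27 that passed the filter in both groups 10 rose and 10 fell. TNS4, a tensin gene, had the largest rise, at 151 ± 26.7 CPM in T47D-TR and 10.1 ± 0.827 CPM in T47D (log2 fold change 3.89 ± 0.16, edgeR adjusted p = 1.3e-10), followed by FBLIM1, a filamin-binding adaptor gene, at 45.2 ± 4.91 CPM in T47D-TR and 14.0 ± 0.484 CPM in T47D (log2 1.69). KANK1, whose product links talin to the cell cortex, fell to 0.330 ± 0.292 CPM in T47D-TR, against 19.8 ± 0.770 CPM in T47D, and FERMT3, a kindlin gene best known from blood cells, had 0.583 ± 0.245 CPM in T47D-TR and 1.37 ± 0.191 CPM in T47D; both passed the filter through T47D alone. Chosen after their values were seen, the integrin activator genes TLN1, FERMT1 and FERMT2, which encode talin and kindlins, all fell, at log2 -0.20, -0.64 and -0.63, whereas ILK, an adaptor at the beta chain tails, rose (log2 0.62). Of 25 focal adhesion signalling genes 10 rose and 10 fell, 40% each (median -0.07). PTK2B, a kinase related to focal adhesion kinase, had the largest rise (log2 1.51, edgeR adjusted p = 8.6e-08). It stood at 27.5 ± 2.96 CPM in T47D-TR and 9.63 ± 0.948 CPM in T47D. ARHGAP26, a GTPase-activating protein gene, had log2 0.78. The SRC-family kinase gene FYN and the exchange factor gene ARHGEF7 had the largest called falls, at log2 -0.31 and -0.29. The count that fell was 4 to 6 when 1 T47D library was left out (6 without replicate 1, 4 without replicate 2 and 5 without replicate 3).

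Of 21 other integrin ligand genes 13 rose (61.9%) and 3 fell (14.3%), with a median of 0.92. One that rose, the vitronectin gene VTN, passed the filter through T47D-TR alone, and of the 20 that passed it in both groups 12 rose and 3 fell. FN1, the fibronectin gene and ligand of alpha5-beta1, had 56.9, 55.1 and 54.0 CPM in T47D-TR, against 5.71, 5.37 and 4.501 CPM in T47D (log2 fold change 3.41 ± 0.10, edgeR adjusted p = 1.6e-11), and COL6A2, a collagen VI chain gene, had log2 2.71 (edgeR adjusted p = 7.6e-07). THBS1, a thrombospondin gene, was lower at 101 ± 29.9 CPM in T47D-TR and 197 ± 6.62 CPM in T47D, with 2332, 2248 and 1119 counts in T47D-TR, of which replicate 3 was the lowest, and TGFB3 was at log2 -0.68. Of 17 other basement membrane genes 10 rose (58.8%) and 3 fell (17.6%), with a median of 0.30, and of the 15 that passed the filter in both groups 10 rose and 2 fell. The rises were led by the calcium-binding glycoprotein gene SMOC1 at 105 ± 9.67 CPM in T47D-TR and 32.4 ± 1.18 CPM in T47D and NTN4, a netrin gene, at log2 1.55. FRAS1, which encodes a matrix protein of the basement membrane zone, fell to 0.654 ± 0.199 CPM in T47D-TR, against 17.9 ± 0.708 CPM in T47D, and passed the filter through T47D alone, and COL18A1 had log2 -0.91. The 6 collagen IV genes, which were also singled out after their values were seen, did not move alike. COL4A5 had 53.2 ± 3.54 CPM in T47D-TR and 19.5 ± 0.803 CPM in T47D (log2 1.45, edgeR adjusted p = 4.7e-09) and COL4A6 50.7 ± 5.05 CPM in T47D-TR and 17.4 ± 0.804 CPM in T47D (log2 1.54, edgeR adjusted p = 1e-08). COL4A1 rose at log2 0.15 (edgeR adjusted p = 0.015), COL4A2 and COL4A4 had log2 0.01 and -0.79 and were not called, and COL4A3 was not tested.

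Of 12 genes of hemidesmosomes and laminin-binding partners 8 rose (66.7%) and 3 fell (25%), with a median of 0.52, and of the 10 that passed the filter in both groups 7 rose and 2 fell. COL17A1, a transmembrane collagen of hemidesmosomes, had 23, 46 and 42 counts in T47D-TR and 9, 10 and 5 counts in T47D and passed the filter through T47D-TR alone, and the tetraspanin gene TSPAN1 had log2 1.37. The plakin genes, chosen after their values were seen, were abundant and rose less than ITGB4. DST had 499 ± 8.65 CPM in T47D-TR and 289 ± 14.9 CPM in T47D and PLEC 928 ± 3.21 CPM in T47D-TR and 822 ± 31.2 CPM in T47D, at log2 0.79 and 0.18. LAD1, a basement membrane anchoring protein gene, had 1, 0 and 0 counts in T47D-TR and 15, 30 and 18 counts in T47D and passed the filter through T47D alone. RPSA, the ribosomal protein gene once described as a laminin receptor, fell at log2 -0.22. Of 23 genes of the dystroglycan complex and its glycosylation 9 rose (39.1%) and 5 fell (21.7%), nearer the shares of all tested genes (median -0.05). SSPN, the sarcospan gene, had log2 2.53 and DTNA, the alpha-dystrobrevin gene, 1.54, and the glycosylation gene TMEM5 had -0.76. Of 18 integrin traffic genes 7 rose (38.9%) and 5 fell (27.8%), with a median of 0.04. TBC1D2 and SHANK3 were at log2 1.19 and 0.79, and RAB4A and EHD1, which act in recycling, at -0.62 and -0.33.

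**Figure D5:**
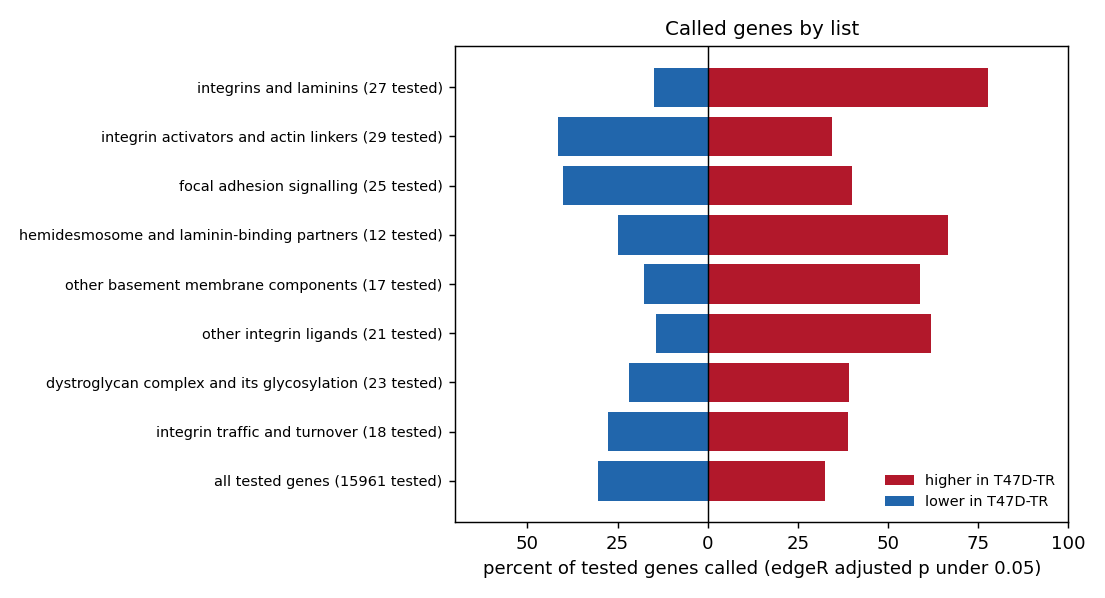
Percent of tested genes called higher (right) or lower (left) in T47D-TR by edgeR, for the integrins and laminins, 7 lists of related genes and all tested genes. The integrins and laminins reach 77.8% higher and 14.8% lower, against 32.5% and 30.5% over all tested genes.

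Markers of other cell types were counted beside these results, and those named were chosen after their values were seen. Of 13 basal and myoepithelial markers 4 were under 1 CPM, and of the 11 tested 4 rose and 3 fell, with a summed level of 285 to 369 CPM in T47D-TR and 174 to 187 CPM in T47D, most of it EGFR. The rises were those of TP63 and of EGFR, KRT17 and ACTA2, the last 3 at log2 1.05, 1.36 and 0.86. The falls were those of MME, CDH3 and MYLK (log2 -0.32 for MYLK). KRT14, a basal keratin gene, had 2, 1 and 15 counts in T47D-TR and 0, 0 and 0 in T47D, and TP63, a basal transcription factor gene, had 12, 21 and 22 counts in T47D-TR, against 1, 0 and 2 counts in T47D, and passed the filter through T47D-TR alone. MME, the CD10 gene, had 1, 0 and 1 counts in T47D-TR, against 14, 22 and 14 counts in T47D, and passed it through T47D alone. CDH3, the P-cadherin gene, fell (log2 -0.66, edgeR adjusted p = 0.012), and KRT5, a further basal keratin gene, was not called (edgeR adjusted p = 0.28). Of 12 luminal markers 3 were under 1 CPM over all libraries, namely GATA3, AGR2 and ESR1, and of the 10 tested 7 rose and 3 fell. The 12 summed to 2905 to 3386 CPM in T47D-TR and 2660 to 2732 CPM in T47D, most of it the keratin genes KRT8, KRT18 and KRT7. Those that rose were KRT19, MUC1, CDH1, ELF3, FOXA1, KRT18 and KRT8, at log2 2.01, 1.56, 1.38, 1.19, 0.93, 0.44 and 0.24. Those that fell were EPCAM, GATA3 and KRT7, at log2 -1.39, -0.97 and -0.27. GATA3 had 0.625 ± 0.0774 CPM in T47D-TR and 1.23 ± 0.140 CPM in T47D. Of 9 fibroblast markers 5 were under 1 CPM, and of the 4 tested 1 rose and 2 fell. The 9 summed to 268 to 310.1 CPM in T47D-TR and 131 to 137 CPM in T47D, most of it FBLN1, which rose (log2 1.48). Of the 5, COL1A2, COL3A1 and DCN were found mostly in T47D-TR replicate 3. COL1A2 had 0, 0 and 22 counts in T47D-TR, COL3A1 3, 1 and 37, and DCN 4, 0 and 19. In T47D, COL3A1 had 0, 0 and 1 counts, and COL1A2 and DCN had 0. PDGFRA had 0, 0 and 2 counts in T47D-TR, and THY1 3, 0 and 1. The source of these counts was not tested. LUM, the lumican gene, had 0.253 ± 0.0873 CPM in T47D-TR and 13.9 ± 1.80 CPM in T47D and passed the filter through T47D alone, and PDGFRB, a growth factor receptor gene, fell (log2 -0.67, edgeR adjusted p = 0.00092). Of 5 endothelial markers 3 were under 1 CPM, with sums of 26.8 to 33.9 CPM in T47D-TR and 2.32 to 3.78 CPM in T47D. Most of the T47D-TR sum was PECAM1, the CD31 gene, at 27.3 ± 3.81 CPM in T47D-TR and 0.669 ± 0.0287 CPM in T47D, while VWF, the von Willebrand factor gene, had 1, 0 and 4 counts in T47D-TR and 0, 0 and 3 counts in T47D. Platelet markers summed to 6.17 to 6.94 CPM in T47D-TR and 4.56 to 5.55 CPM in T47D, and 1 of 2 tested rose. The part of these genes in the integrin and laminin differences was not tested.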

How the data were processed

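RNA of T47D-TR and T47D cells, 3 libraries each, was extracted with TRIzol, selected for poly(A) and prepared with a strand-marking NEBNext kit, per the labels' protocols. Reads were processed with HISAT2 2.1.0, GRCh38 and DESeq, per the submitters' processing notes; the counter, its use of strand and its gene models were not given in the sources used here. What the authors deposited is a table of whole-number counts, one value for each gene in each library, although FPKM stands in its name. Their own means, fold changes and p-values were not used.

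Groups came from the titles. Counts were scaled by TMM, kept by filterByExpr (minimum count 10, minimum total 15) and compared with edgeR 4.0.16 (glmQLFit and glmQLFTest, R 4.3.3) over the whole table, 2-sided. The SE of a log2 fold change comes from log2 CPM with a prior count of 2. DESeq2 1.42.0 and limma 3.58.1 (voom) served as alternatives, with other scalings, filters, a replicate block and single libraries left out. Levels per kilobase used the union of exons of protein-coding transcripts in GENCODE v29, which is not known to be the authors' annotation and shifts levels between genes with long untranslated ends. Positions came from RefSeq, in which 33 of 33 members were found. The procedure was also run on counts simulated from the means and spread of its own fit, with far fewer changed genes than were called here. That run checks the code and cannot show whether the model holds for these data.

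Some genes are not reported here by name. Members and lists were chosen with earlier results of these data known. Named with every library are members called at 2-fold or more or with a mean of at least 50 CPM in a group and their partner chains, and from each list up to 2 called genes at each end. Exons of 19 members overlap another GENCODE gene, those of 8 a gene with a row in the table. Counting error limits members under 1 CPM, and PCR copies are not separate molecules.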

Additional observations from a re-analysis of the deposited data

How the results depend on the processing

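Of the 25 called members, 23 kept their direction and call in every alternative that tested them. These were other scalings (DESeq2 size factors, library size alone), DESeq2, voom with quantile normalization, no filter, a mean CPM of at least 5, a replicate block and leaving out each library in turn. ITGB2 and LAMA2 lost their calls in 5 and 7 of 12, and ITGAE (voom) and ITGA7 (voom, and without T47D-TR replicate 3) gained one, so that voom called 6 members lower. The cause was not tested, except that a mean CPM of at least 5 tested only 20 members, of which 17 were called higher and 2 lower. Leaving out single libraries gave 20 to 21 members higher and 3 to 4 lower, and 4 to 9 focal adhesion signalling genes lower, against 10 with all libraries. Quantile normalization moved the log2 fold changes of all tested genes by a median of -0.11, so that 43.0% of all calls were higher, against 51.6%. The log2 fold change of ITGAV, a small one, stayed between 0.17 and 0.25. With the replicate number as a block, 21 members were called higher and 4 lower. Libraries that share a number had correlations of their deviations of -0.0208 to -0.00512 and did not correlate best with their own number, so the numbers give no sign of pairing. With coding length in place of exonic length, an alternative chosen after seeing the data, ITGB4 took 7.22% of the beta chain sum in T47D-TR and 1.95% in T47D, and ITGAV 11.03% of the alpha chain sum in T47D-TR and 27.1% in T47D. ITGB1 turned direction, at 69.9% of the beta chain sum in T47D-TR and 69.8% in T47D, against 64.4% in T47D-TR and 67.0% in T47D with exonic length; no other chain's share did. Depth limits the 6 members with at most 10 counts.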
